A study of Danio rerio with 2 samples.

Results

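Accessible sites near the ends of the 25 zebrafish chromosomes were examined in 2 ATAC-seq peak lists from neuroblastoma cells, 1 from tumours of MYCN transgenic fish and 1 from tumours of MYC transgenic fish. A peak belonged to a chromosome end when its midpoint lay in the first 2 Mb of a chromosome (a start end) or in the last 2 Mb before the largest peak end on that chromosome over both lists (a far end). The choice used positions and no score, width or overlap, although the far limit rests on the last called peak. By this rule 6206 of 68559 MYCN peaks and 7205 of 77836 MYC peaks were end peaks, 13411 of 146395 in all. The 50 ends held 9.05% of the MYCN and 9.26% of the MYC nuclear peaks in 7.37% of the chromosome length spanned by peaks. At the 2 Mb limit, the last peak inside in either list lay on chromosome 5, with its midpoint 1999 kb from the far end and scores of 55 in MYCN and 122 in MYC. The first outside in either list lay on chromosome 15, 2000.2 kb from the start, with scores of 215 in MYCN and 581 in MYC.

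Both libraries were made from dbh:EGFP+ cells sorted out of dispersed tumours, 50000 cells per transposition, where dbh is the gene of dopamine beta-hydroxylase, which makes noradrenaline from dopamine. The MYCN group carried the MYCN transgene and the MYC group the MYC transgene, and the EGFP marker was used for sorting in both. The promoter that drives either transgene, the age of the fish and the number of fish per library are not given in the sources used here. Each group had 1 library, so differences between the lists compare these libraries only, and intervals below are 95% intervals that cover counting error only. The read depth is unknown from peak lists. The labelled cell type was not checked against marker genes, because an annotation of the build used, danRer7, was not used here.

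Chromosome ends are capped by telomeres, arrays of a short repeat bound by protective proteins. The DNA just inside them, the subtelomeric region, is often rich in repeats and recent duplications, and in zebrafish meiotic recombination is more frequent towards the ends. Neuroblastoma is known for its telomere biology: human tumours with MYCN amplification often express telomerase, whose gene TERT is a known MYC and MYCN target, while others lengthen telomeres by recombination. ATAC-seq peaks mark DNA that the Tn5 transposase can reach, mostly promoters and enhancers. The peaks here lie in assembled sequence and do not measure telomeres.

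Accessible sites were denser at chromosome ends than elsewhere in both tumour types. The MYCN list held 62.06 peaks per Mb at ends and 49.6 per Mb in the rest of the same chromosomes, a ratio of 1.25 (1.22 to 1.28). The MYC list held 72.05 and 56.2 peaks per Mb, a ratio of 1.28 (1.25 to 1.31). Neighbouring MYCN peaks lay a median of 9.84 kb apart at ends and 11.6 kb in the rest, and MYC peaks 8.52 kb and 9.72 kb. Peaks covered 2.36% of the end sequence and 1.85% of the rest in MYCN, and 2.86% and 2.20% in MYC.

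The higher density was found on nearly every chromosome. In MYC the ends were denser than the rest on 25 of 25 chromosomes, with ratios from 1.08 on chromosome 8 to 1.58 on chromosome 22. In MYCN they were denser on 24 of 25, with ratios up to 1.499, also on chromosome 22. The exception was chromosome 5, whose MYCN ratio was 0.956 while its MYC ratio was 1.30. The mean ratio over the 25 chromosomes was 1.25 ± 0.124 (SD) in MYCN and 1.28 ± 0.136 in MYC.

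Start and far ends had close overall densities. Start ends held 61.8 MYCN peaks per Mb and far ends 62.4, which were 1.24 (1.20 to 1.29) and 1.26 (1.21 to 1.30) times the rest. In MYC, start ends held 73.5 and far ends 70.6 peaks per Mb, which were 1.31 (1.27 to 1.35) and 1.26 (1.21 to 1.30) times the rest. These intervals overlapped in both lists.

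The excess was greatest in the outermost sequence and smaller farther inward. In the outermost 250 kb there were 87.2 MYCN peaks per Mb (82.1 to 92.5) and 97.9 MYC peaks per Mb (92.5 to 103.6), which were 1.76 and 1.74 times the rest. From 0.25 to 0.5 Mb the densities were 77.04 and 89.3 per Mb, and from 0.5 to 1 Mb they were 58.6 and 72.6. Between 1.5 and 2 Mb they were 52.8 and 60.1, or 1.07 times the rest in both lists. In that step start ends were at 1.11 times the rest in MYCN and 1.16 times in MYC, and far ends at 1.02 and 0.981 times. From 2 to 3 Mb they were 49.7 and 56.5 per Mb, 1.00 and 1.01 times the rest, and from 3 to 4 Mb they were 45.8 and 52.2, below it. The outermost 500 kb held 33.1% of the MYCN and 32.5% of the MYC end peaks, and 46 of the 50 ends exceeded the mean of the rest there in each list. An end held 16 to 56 MYCN peaks (median 43.5) and 17 to 71 MYC peaks (median 48) in its outermost 500 kb, against means of 24.8 and 28.1 per 500 kb in the rest.

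**Figure D1:**
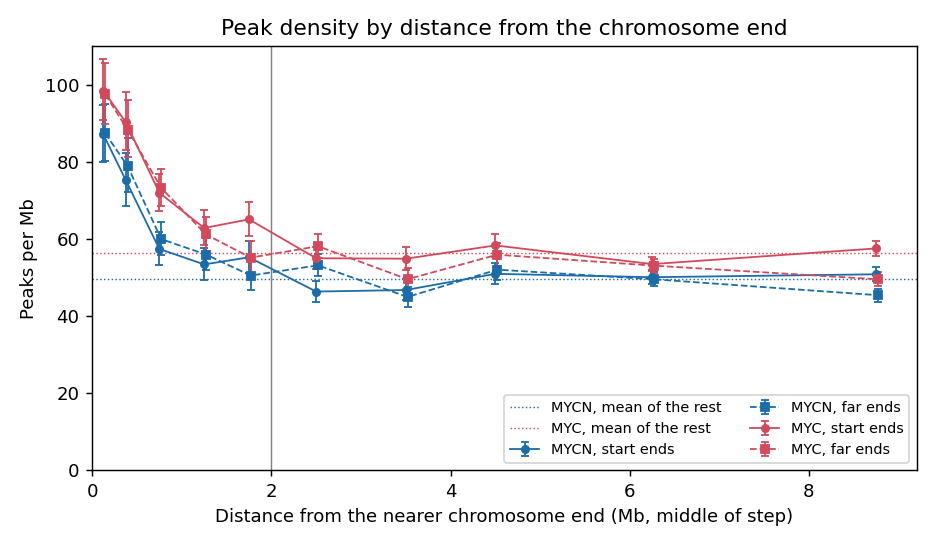
Peaks per Mb (vertical axis) against the distance from the nearer chromosome end in Mb (horizontal axis, middle of each step), for MYCN (blue) and MYC (red), start ends (solid) and far ends (dashed), with 95% Poisson intervals. Dotted lines are the means of the rest, 49.6 and 56.2 per Mb, and the grey line marks 2 Mb; all 4 lines fall from 87.04 or more per Mb in the first 250 kb to near the dotted lines by 2 to 3 Mb.

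Ends also exceeded the sequence next to them. The neighbouring 2 Mb, from 2 to 4 Mb, held 47.8 MYCN and 54.4 MYC peaks per Mb, and ends held 1.30 (1.25 to 1.35) and 1.33 (1.28 to 1.37) times as many. Of the 50 ends, 45 held more MYCN peaks than their own neighbouring 2 Mb and 5 held fewer. For MYC, 47 held more and 2 held fewer. The position of the last peak decides where a far window begins, whereas a start window begins at the first base. Counting the start window from its first peak instead gave ratios to the rest of 1.25 and 1.28. That moved a window of 2 Mb by at most 34717 bp and left the far limit as it was, so it could hardly change the ratios.

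Single ends varied widely around these means. An end held 75 to 166 MYCN peaks, with a median of 123 and quartiles of 116 and 138, and 93 to 188 MYC peaks, with a median of 148 and quartiles of 133 and 155. In 617 windows of 2 Mb tiled through the rest, the medians were 100 MYCN and 113 MYC peaks, and 11.8% of these windows reached the MYCN median of an end and 10.5% the MYC median. Of the 50 ends, 40 in MYCN and 38 in MYC reached the upper quartile of those windows, 112 and 132 peaks, and 4 and 7 lay below their median. Across the 50 ends, MYCN and MYC counts had a Pearson correlation of 0.65 and a Spearman correlation of 0.61, a description over ends that share the genome and the mapping.

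By the total of both lists, the far end of chromosome 3 was the richest in accessible sites, with 166 MYCN and 183 MYC peaks. The start of chromosome 22 followed with 148 and 188, and the far end of chromosome 11 with 139 and 185, so both held more MYC peaks. The far end of chromosome 20 had the lowest total, with 75 MYCN and 107 MYC peaks, although 4 other ends held fewer MYC peaks, and its last MYCN peak lay 116162 bp inside the last MYC peak. The start of chromosome 3 held 92 MYCN and 93 MYC peaks, and the start of chromosome 7 held 87 and 101. By these totals chromosome 3 had both the richest end and one of the poorest. The neighbouring 2 Mb at the start of chromosome 7 were poorer still, with 14 MYCN and 16 MYC peaks. Over the 25 chromosomes, the totals of the start and the far end had a Pearson correlation of -0.28 and a Spearman correlation of -0.12, given as a description.

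**Figure D2:**
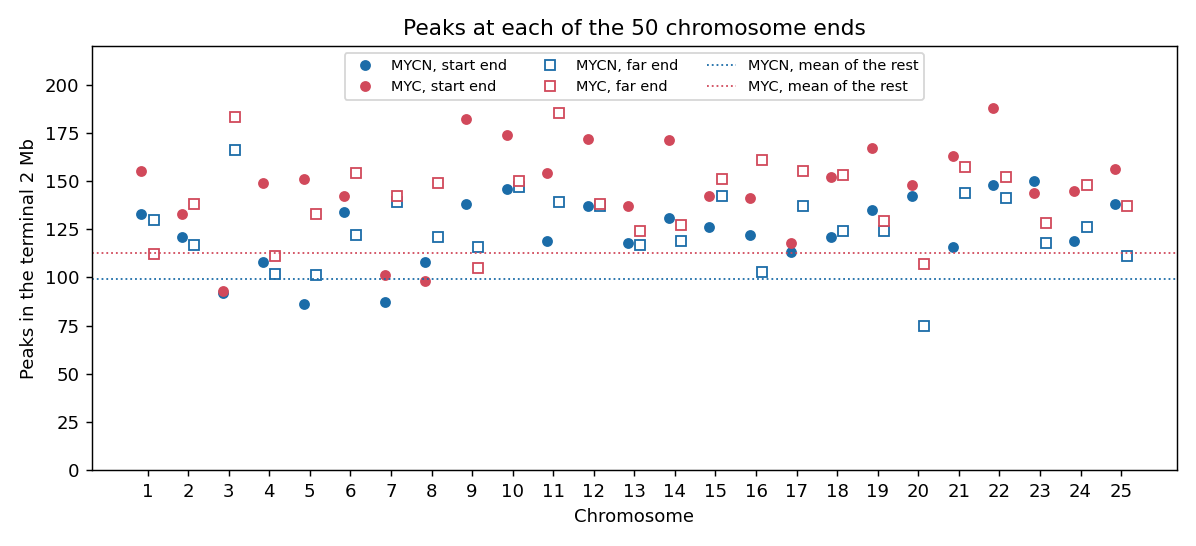
Number of peaks in the terminal 2 Mb (vertical axis) at the start end (filled circles) and far end (open squares) of each chromosome (horizontal axis), for MYCN (blue) and MYC (red). Dotted lines are the means of the rest per 2 Mb; most ends lie above them, and the far end of chromosome 20 is lowest in MYCN with 75 peaks.

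Called peaks reached close to the starts of the assembled chromosomes. The first peak began at a median of 4584 bp in MYCN and 2854 bp in MYC, and it lay within the first 10 kb on 16 and 20 of the 25 chromosomes. On chromosome 24 a MYC peak began at the first base, chr24:1-250, and scored 121. The nearest MYCN peak was 6561 bp away. The first peaks of chromosome 18 were shared, chr18:106-535 in MYCN (score 229) and chr18:40-585 in MYC (score 215). Those of chromosome 21 were shared too, chr21:313-582 in MYCN (score 111) and chr21:144-639 in MYC (score 210). The first MYCN peak of chromosome 25, chr25:629-941, scored 176 and lay over a MYC peak that scored 196.

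The longest empty stretches at a start were still short. Chromosome 3 had its first peak at 34955 in MYCN and 34717 in MYC, the farthest in both lists. In MYCN, chromosome 16 followed at 20201 and chromosome 22 at 19268. In MYC, chromosome 10 followed at 20140 and chromosome 23 at 16944. The last peak of a chromosome belonged to MYC on 21 chromosomes and to MYCN on 4, and the last MYCN peak ended a median of 119 bp before the largest peak end. On several of the 21 the last MYCN peak ended only 2 to 40 bp earlier, less than the width of a peak. On 5 it ended more than 10 kb earlier. How far the last peak lay from the assembled far end is not known, because the largest peak end stood for the chromosome length.

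End peaks resembled other peaks in median width, while their median score rank was the same or slightly lower. Over the whole 2 Mb the strongest class was less enriched than weaker ones. The median width was 325 bp (320 to 330) at ends and 324 bp in the rest for MYCN, and 338 bp (333 to 343) and 337 bp for MYC. The deposited scores, which are the authors' own and were ranked only within their list, had a median percentile of 49.0 at ends (46.7 to 50.1) and 50.1 in the rest for MYCN, and 49.5 (48.8 to 51.1) and 49.5 for MYC. In the outermost 250 kb, the medians were 340 bp and percentile 51.3 in MYCN, and 350 bp and percentile 52.3 in MYC. From 0.5 to 1 Mb the median percentiles were 46.7 in MYCN and 47.1 in MYC. The median percentile was higher at ends than in the rest on 7 of 25 chromosomes in MYCN and on 10 of 25 in MYC.

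In the highest of 10 score classes, density at ends was close to that of the rest. There were 5.46 such MYCN peaks per Mb at ends and 5.02 in the rest, a ratio of 1.09 (0.995 to 1.19). For MYC the values were 6.30 and 5.68, a ratio of 1.11 (1.02 to 1.20). In the other 9 classes the ratios ran from 1.18 to 1.39 in MYCN and from 1.17 to 1.38 in MYC. This class made up 8.80% of the end peaks (8.12 to 9.53) and 10.1% of the rest in MYCN, and 8.74% (8.11 to 9.42) and 10.1% in MYC. In MYCN, start ends had 7.71%, a difference from the rest of -2.41 points (-3.33 to -1.39), and far ends had 9.88%, a difference of -0.24 points (-1.26 to 0.886). In MYC, start ends had 8.38% (-1.74 points, -2.62 to -0.77) and far ends 9.12% (-0.99 points, -1.92 to 0.0287). The far-end intervals included 0 in both lists. In the outermost 500 kb the highest class stood within the range of the others. It was at 1.58 times the rest in MYCN (1.36 to 1.82) and 1.51 times in MYC (1.31 to 1.73), beside 1.28 to 1.89 and 1.28 to 1.88 in the other 9 classes.

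Median widths were larger at ends in 9 of the 10 score classes in MYCN and in 6 of 10 in MYC, given without a test. In MYC the ends were narrower in 3 classes and equal in 1. In the highest class the median was 551 bp at ends and 520 bp in the rest for MYCN, and 576 bp and 559 bp for MYC. In the lowest class the widths were 231 bp and 225 bp in MYCN, and 219 bp and 214 bp in MYC.

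The strongest end sites were open in both tumour types. The highest-scoring end peak of either list was the same site, spanning chr17:53841268-53841661 in MYCN (score 1103, rank 8), while the MYC peak spanned chr17:53841258-53841688 and scored 1141, rank 9. It lay 140 kb from the far end. The site chr3:1879671-1880386 also stood among the 5 highest end peaks of both lists, with a score of 846 and rank 47 in MYCN and a score of 1043 and rank 28 in MYC.

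Other leading end sites differed more in rank, although both peaks of each site stood in the highest score class of their list. The MYCN peak chr2:135017-135746 had a score of 977 and rank 18, and its MYC counterpart had a score of 562 and rank 3007. The MYCN peak chr21:42707927-42708613 had a score of 848 and rank 45, against a MYC score of 519 and rank 3900. The MYCN peak chr15:45981796-45982390 had a score of 826 and rank 58, against a MYC score of 709 and rank 1060. The leading MYC sites were closer in rank.

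Chromosome 24 held 2 of the 5 highest MYC end peaks, both at its far end. The peak chr24:42088029-42088666 had a score of 1081 and rank 18, and its MYCN counterpart had a score of 725 and rank 182. The peak chr24:42967050-42967805 had a score of 995 and rank 60, against a MYCN score of 692 and rank 248. The MYC peak chr13:697579-698324 had a score of 1040 and rank 32, against a MYCN score of 804 and rank 78. All of these sites overlapped a peak of the other list.

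The widest end peaks lay mainly in a short stretch at the start of chromosome 5. The 3 widest MYCN end peaks were there, chr5:1192028-1194042 (2015 bp), chr5:1201166-1202929 (1764 bp) and chr5:1198946-1200673 (1728 bp), with scores of 126, 162 and 195. In MYC, the peak chr5:1192017-1194051 was 2035 bp wide with a score of 121. The MYC peak chr5:1199089-1203907 was 4819 bp wide and joined 4 MYCN peaks. The remaining wide MYC peak lay at the far end of chromosome 20, chr20:55447648-55449897, was 2250 bp wide with a score of 471, and joined 2 MYCN peaks. Such joined peaks were as frequent at ends as elsewhere, at 2.25% of the shared MYC end peaks (1.87 to 2.69) and 2.21% in the rest.

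Most end sites were called in both libraries, in shares close to those of the rest. Peaks with an overlap of 1 bp or more between the lists count as shared, and all others as list-only, which does not exclude signal below the calling limit in the other library. Among MYCN end peaks 1072 were list-only, 17.3%, against a background of 18.4% over all MYCN nuclear peaks. Among MYC end peaks 2129 were list-only, 29.5%, against a background of 28.9%. The shared share of MYCN peaks was 82.7% at ends and 81.5% in the rest, a difference of 1.26 points (0.248 to 2.23). For MYC it was 70.5% and 71.1%, a difference of -0.68 points (-1.80 to 0.412).

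Over single chromosomes these differences had no steady direction. The shared share was higher at ends on 15 of 25 chromosomes in each list. The difference averaged 1.15 ± 3.15 points (SD over 25 chromosomes) in MYCN and -0.61 ± 5.38 points in MYC. Chromosome 5 had the lowest MYC value, with 52.8% of end peaks and 71.7% of the rest shared. Chromosome 23 had the highest, with 77.9% and 69.3%. In MYCN the difference was highest on chromosome 4, with 86.2% of end peaks and 76.8% of the rest shared, and lowest on chromosome 23, with 79.5% and 83.1%.

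Sharing followed the score at ends as it did elsewhere. In the highest score class 99.5% of MYCN and 99.8% of MYC end peaks were shared, against 99.5% and 99.6% in the rest. In the lowest class 51.5% (47.6 to 55.3) and 33.0% (29.6 to 36.5) were shared, against 48.8% and 34.2% in the rest. MYCN end peaks had the larger shared share in 8 of the 10 classes, and the difference was greatest in the fourth class, at 81.5% against 77.1%. In MYC the greatest difference had the opposite direction, in class 5, at 64.9% of end peaks and 69.2% of the rest (-4.27 points, -7.95 to -0.74). With the classes weighted as in the rest, the shared share at ends was 83.2% in MYCN, 1.76 points above the rest, and 70.5% in MYC, a difference of -0.62 points.

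**Figure D3:**
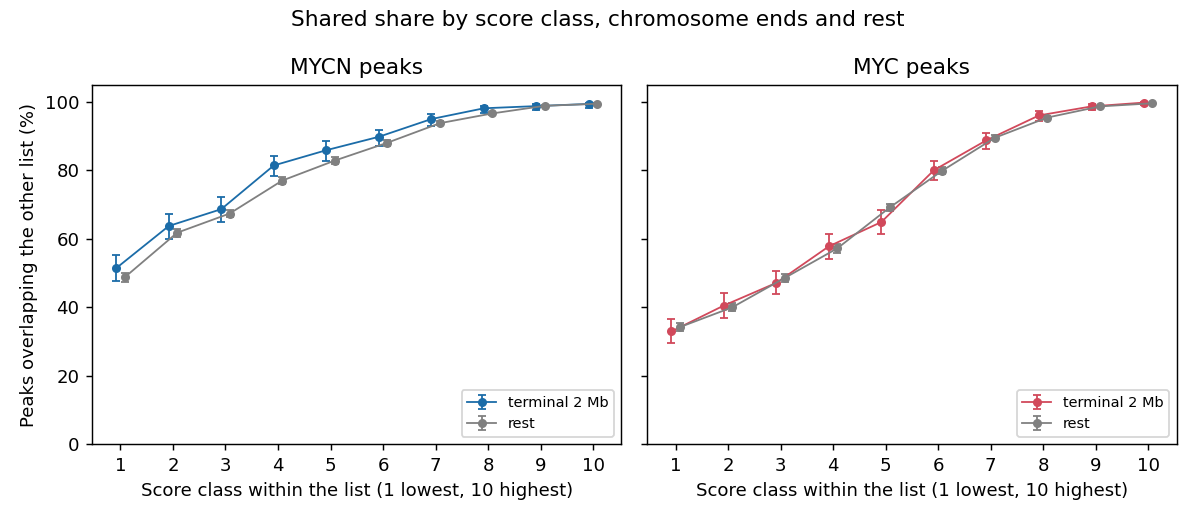
Share of peaks that overlap the other list (vertical axis, percent) by score class within the list (horizontal axis, 1 lowest to 10 highest), for MYCN (left) and MYC (right), at chromosome ends (coloured) and in the rest (grey), with 95% Wilson intervals. The curves of ends and rest run together, from 51.5% to 99.5% for MYCN ends and from 33.0% to 99.8% for MYC ends.

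Both shared and list-only sites were denser at ends. Shared MYCN peaks numbered 51.3 per Mb at ends and 40.4 in the rest, a ratio of 1.27 (1.23 to 1.31). MYCN-only peaks numbered 10.7 and 9.19 per Mb, a ratio of 1.17 (1.09 to 1.24). MYC-only peaks numbered 21.3 and 16.2 per Mb, a ratio of 1.31 (1.25 to 1.37). The median width of list-only end peaks was 245 bp in MYCN and 256 bp in MYC, and that of shared end peaks was 353 bp and 399 bp. Of the list-only end peaks, 82.4% in MYCN and 83.9% in MYC lay more than 1 kb from any peak of the other list, against 87.1% and 86.7% in the rest.

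Of the list-only sites at ends, the MYC library had 66.5% (64.9 to 68.1), against a background of 64.1% over all list-only peaks and 63.8% in the rest, a difference of 2.68 points from the rest (0.945 to 4.38). At start ends, MYC-only peaks made up 1147 of 1670, or 68.7% (66.4 to 70.9). At far ends the number was 982 of 1531, 64.1% (61.7 to 66.5). The difference between start and far ends was 4.54 points (1.27 to 7.81), and 3.57 points (0.230 to 6.90) without the start of chromosome 5. A gap of this kind was also present farther inward, as the neighbouring 2 Mb had 67.5% on the start side and 60.03% on the far side. Start ends exceeded their neighbouring 2 Mb by 1.18 points (-2.19 to 4.59) and far ends theirs by 4.11 points (0.488 to 7.73). Only 13 of 25 chromosomes had the higher share at their start end, so the pooled difference does not describe the typical chromosome.

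The counting intervals of these shares take peaks as independent, which was not tested. Over the 25 chromosomes, the MYC-only share at ends minus that of the rest averaged 2.17 ± 7.52 points (SD), from -16.2 points on chromosome 23 to 18.1 points on chromosome 11, and it was above 0 on 15. By distance, the share was 63.8% in the outermost 250 kb, 67.2% from 0.25 to 0.5 Mb, 71.7% from 0.5 to 1 Mb (68.6 to 74.7) and 64.0% from 1 to 1.5 Mb. Between 2 and 15 Mb the steps ran from 58.4% (5 to 7.5 Mb) to 63.9% (2 to 3 Mb). The share was 65.6% from 15 to 20 Mb and 66.6% (65.7 to 67.5) from 20 to 40 Mb. A share as high as that of the pooled ends was thus also present far inside the chromosomes.

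The MYC over MYCN ratio of peak numbers was 1.16 at ends (1.12 to 1.20) and 1.13 in the rest. That interval takes both lists as independent although most end peaks are shared, so it cannot decide whether ends differ from the rest. The ratio was 1.19 at start ends (1.13 to 1.25) and 1.13 at far ends (1.08 to 1.19). In 4849 pairs of end peaks that overlapped only each other, the MYC peak had the higher percentile within its list in 60.8% of pairs (59.4 to 62.2), against 58.4% in the rest (58.0 to 58.9). At start ends this share was 62.5% (60.5 to 64.4) and at far ends 59.1% (57.1 to 61.0). Percentiles are ranks within a whole list, and list-only peaks are 28.9% of the MYC and 18.4% of the MYCN list. The shares of pairs therefore do not compare signal strength between the libraries. The MYC peak was wider by a median of 26 bp both at ends and in the rest.

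Some ends were far from the average in the side of their list-only peaks. The 95% interval lay above the background of 64.1% at 10 of the 50 ends, 7 start and 3 far ends, and below it at 6, 2 start and 4 far ends. MYCN-only peaks outnumbered MYC-only peaks at 4 ends, and the numbers were equal at 2. Over the 50 ends the share had a standard deviation of 12.4 points, and over 616 interior windows of 2 Mb with at least 20 list-only peaks it had one of 15.4 points. The spread over the ends was the smaller of these. The lower quartile of the share was 57.0% over the ends and 50% over these windows, so shares of 50% or less were not particular to ends. The upper quartile was 74.3% over the ends and 74.5% over the windows, and the highest share 89.5% and 92.6%. High shares were thus not particular to ends either. Intervals above or below the background were not counted for the interior windows.

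The far end of chromosome 16 leaned most to MYC, with 68 MYC-only and 8 MYCN-only peaks, a share of 89.5% (80.6 to 94.6). The start of chromosome 22 followed with 53 and 10 (84.1%), and the start of chromosome 4 with 57 and 11 (83.8%). In each of these, MYC-only peaks outnumbered MYCN-only peaks in all 8 steps of 250 kb. The same held at several other ends, such as the start of chromosome 15, whose share of 66.1% was near the background of 64.1%. The far end of chromosome 1 leaned most to MYCN, with 36 MYCN-only and 19 MYC-only peaks, a MYC-only share of 34.5% (23.4 to 47.7). The start of chromosome 8 had 29 and 20 (40.8%), and the far end of chromosome 9 had 34 and 24 (41.4%).

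These leans were not evenly spread along the MYCN-leaning ends. At the far end of chromosome 1, the 250 kb steps from 0.5 and from 1 Mb held 8 and 10 MYCN-only peaks and 1 MYC-only peak each, while the outermost step held 4 of each. MYCN-only peaks were more numerous in 3 of the 8 steps there, MYC-only peaks in 3 others, and the numbers were equal in 2. MYCN-only peaks led in 5 of 8 steps at the start of chromosome 8 and in 6 of 8 at the far end of chromosome 9. The 2 ends of a chromosome could differ, as chromosome 9 had 76.5% MYC-only at its start and chromosome 8 had 75% at its far end. Across the 25 chromosomes the shares of the start and far end had a Pearson correlation of -0.25 and a Spearman correlation of -0.32. Between an end and its own neighbouring 2 Mb the correlations over 50 ends were 0.44 and 0.51, given as descriptions of adjacent sequence in the same libraries.

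**Figure D4:**
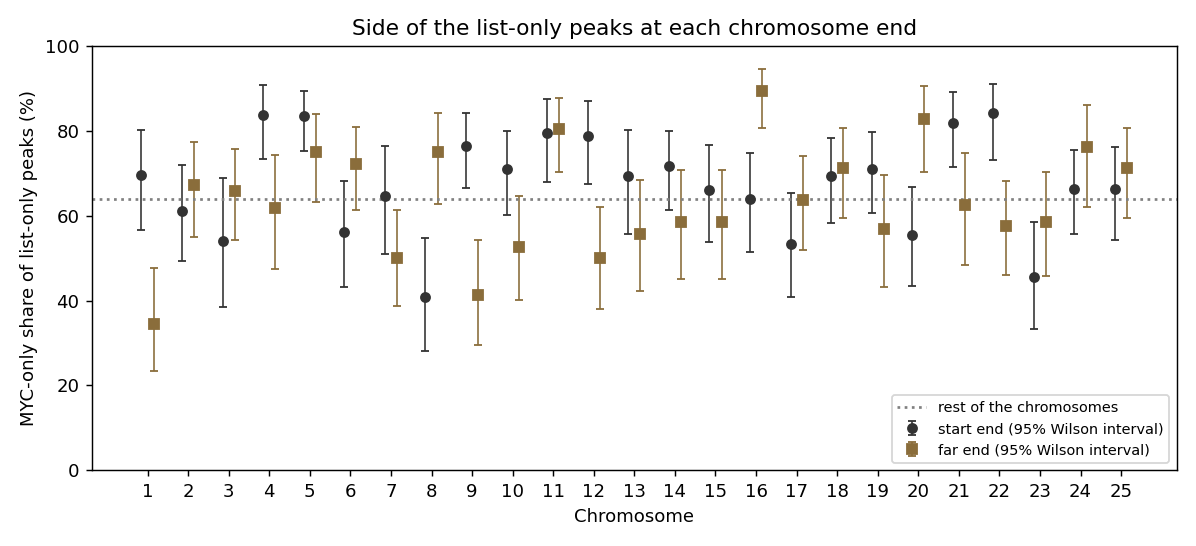
MYC-only share of the list-only peaks (vertical axis, percent) at the start end (dark circles) and far end (brown squares) of each chromosome (horizontal axis), with 95% Wilson intervals. The dotted line is the rest of the chromosomes, 63.8%; the ends run from 34.5% at the far end of chromosome 1 to 89.5% at the far end of chromosome 16.

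**Figure D5:**
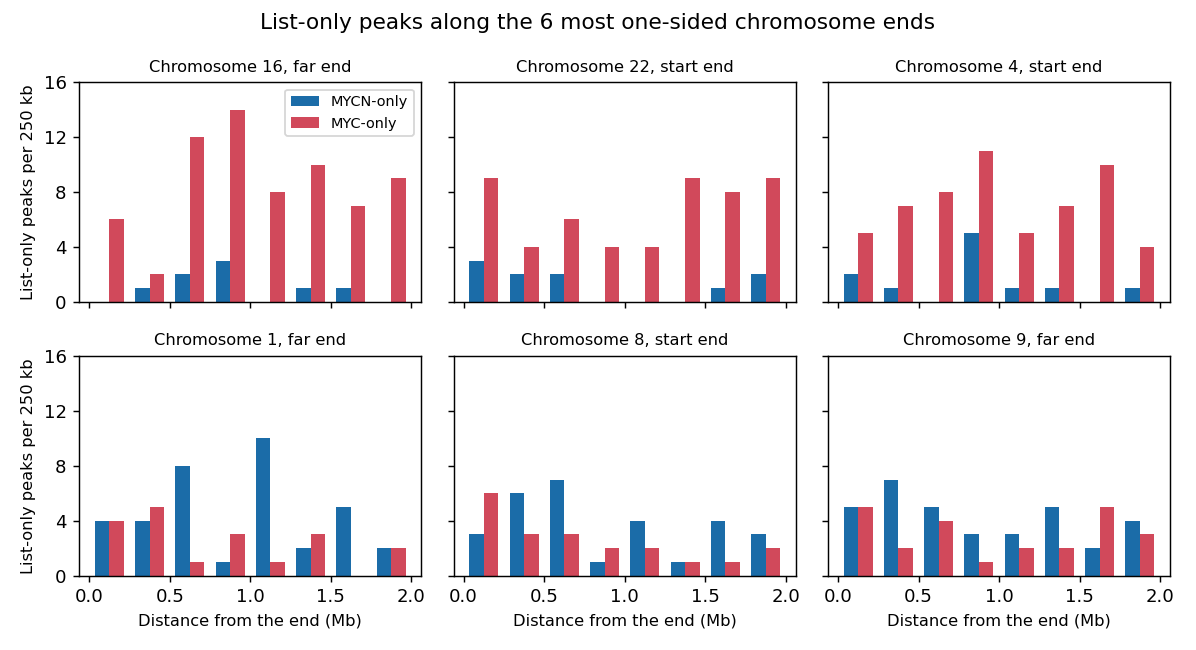
Number of MYCN-only (blue) and MYC-only (red) peaks per 250 kb (vertical axis) by distance from the end in Mb (horizontal axis), at the 3 ends with the highest and the 3 with the lowest MYC-only share. MYC-only peaks lead in all 8 steps of the upper 3 ends. At the far end of chromosome 1 the MYCN-only peaks lead in 3 steps, with 8, 10 and 5 peaks, and the MYC-only peaks lead in 3 others.

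Chromosome 5 had the most list-only peaks at an end. Its start held 151 MYC and 86 MYCN peaks, a ratio of 1.76. Of the MYC peaks there, 86 were MYC-only against 17 MYCN-only, a MYC-only share of 83.5% beside a background of 64.1%. Only 43.0% of the MYC peaks there were shared, the lowest value of the 50 ends, against 71.1% of all MYC nuclear peaks. MYC-only peaks led in all 8 steps of 250 kb, as they did at several other ends. Its far end had 48 MYC-only and 16 MYCN-only peaks, a share of 75% (63.2 to 84.0), and a ratio of MYC to MYCN peaks of 1.32. That interval included the background of 64.1%, and the neighbouring 2 Mb had a share of 82.8%.

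List-only sites at ends had lower scores than shared ones, with medians of 53 in MYCN and 58 in MYC against 111 and 157. In the rest the list-only medians were 55 and 57. The strongest MYCN end peak without a MYC peak within 1 kb was chr9:57923055-57923454 (score 345, rank 5280), 10099 bp from any MYC peak. Next came chr18:48062914-48063229 (score 317) and chr1:59260670-59261179 (score 313), the latter 24620 bp from any MYC peak. The other two were chr2:1892618-1893123 (score 279) and chr1:59345467-59345789 (score 274). Far ends held 4 of these 5 sites, and the far end of chromosome 1 held 2. Of all 883 MYCN end peaks without a MYC peak within 1 kb, 453 lay at far ends.

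The strongest MYC end peaks without a MYCN peak within 1 kb all lay at start ends, which held 956 of all 1786 such peaks. The first was chr13:587254-587774 (score 414, rank 7083), which had a MYCN peak 1289 bp away. Next came chr1:346369-347037 (score 366), 14114 bp from any MYCN peak. It was followed by chr5:946153-946647 (score 354), by chr8:1103709-1104083 (score 333), 22527 bp from any MYCN peak, and by chr5:334299-334735 (score 311). Chromosome 5 thus held 2 of these sites.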

How the data were processed

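The authors deposited 1 ATAC-seq peak list per library, with the position and a score of each peak. Reads were aligned with Bowtie2 2.2.1 to danRer7 and MACS2 2.1.0 called the peaks, as the submitters' processing notes list. Settings, Tn5 shifting, duplicate removal and any control are not stated in those notes. This deposited score is a whole number of at least 13 with no stated unit and was used only within its list.

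Starts count from 1. The 3 MYCN and 2 MYC mitochondrial peaks were left out. Chromosome length was taken as the largest peak end. Intervals are Wilson for shares, Newcombe for their differences, exact Poisson or conditional binomial for densities and ratios, and order statistics for medians. No p-value was computed. Score classes are 10 classes of equal percentile range, and ties make them unequal in size. In the rest, for example, MYC class 3 held 7966 peaks and MYC class 4 held 6064. Overlaps (Python 3.11.15, numpy 2.4.6, pandas 2.3.3, scipy 1.17.1) were checked against bedtools 2.31.1, and overlap and density were tested on simulated lists. Figures used matplotlib 3.10.9.

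The ends and the quantities compared were chosen with earlier results of these data known. A rule named the 3 richest and 3 poorest ends, the 3 with the highest and lowest MYC-only share, the highest-scoring, strongest list-only and widest end peaks of each list, and the first peaks. The start of chromosome 5 and the values by score class, step and pair were chosen after values were seen. Alternatives were other windows, comparisons, overlaps and peak filters. A genome of danRer7 was not used here, so no sequence or gene is given.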

Additional observations from a re-analysis of the deposited data

How the results depend on the processing

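Density at ends stayed above the comparison in all 20 alternatives run, of which trimming the MYC list cannot move the MYCN ratio. The MYCN and MYC ratios were 1.41 and 1.47 with a window of 1 Mb, 1.09 and 1.10 with 5 Mb, and 1.30 and 1.33 against the neighbouring 2 Mb. With peaks at or above the median score of their list, the MYCN ratio was 1.22. The MYC-only share of list-only end peaks was 68.3% with 1 Mb, 64.7% with 5 Mb, 68.7% at start ends, 64.1% at far ends, 71.8% above the median score, 61.9% with 50% reciprocal overlap and 54.3% with the MYC list trimmed to the MYCN length, which holds it near equality. It exceeded its comparison in all 12 alternatives, and the counting interval of the difference included 0 with 5 Mb and at far ends. The share without the start of chromosome 5 was 65.9%, an alternative chosen after seeing the data, as was counting the start window from the first peak.

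The shared share of MYCN end peaks was 83.7% with 1 Mb, 81.7% with 5 Mb, 96.1% above the median score, 78.2% with the trimmed list, 74.3% with reciprocal overlap and 84.6% with a distance under 500 bp. It was above its comparison in all 11 alternatives, and in 6 the interval excluded 0. Leaving out chromosome 4 gave a difference of 0.965 points, with an interval that included 0 (-0.0626 to 1.95). For MYC the shared share was 68.8% at start ends, 72.2% at far ends, 91.7% above the median score, 74.9% trimmed, 64.0% with reciprocal overlap and 73.6% with the distance. It was below its comparison in 9 of 11 and above it at far ends and against the neighbouring 2 Mb. The interval lay wholly below 0 at start ends (-2.34 points, -3.89 to -0.82) and with the trimmed list (-1.28, -2.40 to -0.17). The start ends include that of chromosome 5, where 43.0% of 151 MYC peaks were shared, and this share was not computed without it. The median width at ends was 331 bp in MYCN with 1 Mb, 421 bp in MYCN and 450 bp in MYC above the median score, and 358 bp in MYC trimmed. The median MYC percentile above the median score was 47.9, against 50.1 in the rest. Over both lists the score rank was below its comparison in 12 of 18 alternatives and above it in 0. The MYC over MYCN ratio was 1.21 above the median score and 1.03 trimmed, where equal lengths fix it near 1. Of the other 66 values, 11 could not change by construction, and 55 could and stayed within the counting interval of the reported value. The cause of these shifts was not tested. With 1 library per group there was no replicate to leave out. No paired analysis was possible because the groups share no replicates. Peak numbers depend on a read depth that is not known.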

Other observations

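Stretches of accessible sites called in a single list were found at several ends. They are described here with no comparison, and each belongs to 1 library. MYC-only peaks made up 66.5% of the list-only peaks at ends and 64.1% of those on all chromosomes. An uninterrupted series of list-only peaks of 1 list magnifies a lean of the single peaks, because every peak must be on the same side. Such series were not counted in the rest, and their number is not comparable with these shares of peaks. Of the 19 uninterrupted series of 5 or more list-only peaks at ends, 18 were MYC-only, and the start of chromosome 5 held 6 of them. The longest had 7 MYC peaks each, chr2:60004489-60071593, chr16:58168412-58221681 and chr24:1122757-1154021, with highest scores of 92, 47 and 108. The MYCN-only series had 5 peaks, chr1:58667922-58711405, with a highest score of 97.

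In fixed steps of 100 kb, the densest at an end was chr12:1600001-1700000. There 4 of the 21 MYC peaks and none of the 18 MYCN peaks were list-only, against 28.9% of all MYC and 18.4% of all MYCN nuclear peaks. In chr15:46300001-46400000, 2 of 18 MYC peaks and 1 of 17 MYCN peaks were list-only. The first 100 kb of chromosome 20 held 18 MYCN and 17 MYC peaks, and 6 of each were list-only.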
